A study of Mus musculus with 8 samples.

Results

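Described here are 10 genes for transcription factors and cofactors of the developing and adult gonad: the GATA factors Gata1, Gata2, Gata4 and Gata6, the GATA cofactors Zfpm1 and Zfpm2, and Wt1, Lhx9, Emx2 and Cbx2. They were chosen by name, with earlier results of these data known, and matched by mouse Entrez gene ID. Of them, 10 of 10 were found among the 24235 genes on the arrays, through 14 probes. Of these 10 genes, 8 passed the filter on low signal and were tested among 15638 genes. Gata2 and Lhx9 did not pass it.

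GATA factors are zinc finger proteins that bind DNA at sites built around the letters GATA, and the FOG proteins encoded by Zfpm1 and Zfpm2 bind to the GATA proteins and change what they do at their targets. GATA4, its partner FOG2 (Zfpm2), WT1, LHX9, EMX2 and the polycomb protein CBX2 are all needed for the gonad to form or to take its sex in the mouse. GATA4 and GATA6 go on acting in granulosa and theca cells, where they drive steroid enzyme genes, while GATA1 and GATA2 are best known from blood, and GATA1 also from Sertoli cells, the supporting cells of the testis.

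The cells were primary cells of preantral follicles, taken from ovaries of female Swiss mice of 8 weeks of age. Each replicate pooled 5 mice, and the cells were kept in culture for 9 days. All 4 groups received 12 pmol of siRNA by lipofection together with a DsRed plasmid, and were grown on for 24 h. The siRNA was either a control or directed at Foxl2 (FOXL2 siRNA). Under each of these, cells were given either vehicle or 100 nM estradiol (E2) for the 10 h before lysis, in hormone-free medium, and every one of the 4 combinations had 2 replicates. FOXL2 is a forkhead factor that holds granulosa cells in their identity. RNA of each of the 8 samples was read on its own one-colour array. Values are given as log2 scaled signal, the log2 of a gene's intensity after every array had been brought to the same 75th percentile, so that 1 unit is a 2-fold difference. A probe was taken as detected when the scanner software marked it as well above background. Levels of different genes come from different probes and are not compared with each other.

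The siRNA target itself gave a divided answer. The dim Foxl2 probe fell by 0.97 on the log2 scale over both treatments (SE 0.19, limma adjusted p = 0.0199), while the bright probe, which sets the value of the gene, changed by 0.18 (SE 0.10, adjusted p = 0.364). Since the gene value did not fall, the groups are called by their labels below. The labels call the cells mostly granulosa cells. Of 12 granulosa markers, 9 were detected on all 8 arrays, among them Amhr2, Inha and Fst, while Fshr and Amh were detected on none. So were 9 of 10 Sertoli, 4 of 5 stroma, 6 of 9 surface epithelium and mesothelium and 3 of 5 theca markers on the array. Fewer were for leukocytes and macrophages (3 of 7), endothelium (2 of 7), oocytes (1 of 9) and blood (0 of 10). Detection of markers thus does not single out granulosa cells. As these are extracts of whole cultures, more RNA of a gene per cell and more cells that carry it cannot be told apart.

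Between 51.4 and 55.6% of probes were detected per array, and 0 were saturated. The correlation between the 2 replicates of a group, across genes, was 0.989 to 0.992.

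The first question was whether these factors depend on FOXL2. Gata1 was above background only on arrays labelled FOXL2 siRNA and passed the filter through them, so that it had to differ. It is left out of the counts set against all genes, which leaves 7 genes, all detected on 8 of 8 arrays. As the genes were chosen with earlier results of these data known, counts set against all genes here and below are descriptions and no test of the group. Averaged over both treatments, 5 of these 7 genes passed the test at an adjusted p of 0.05, against 12.6% of all genes. Wt1, Zfpm1, Emx2 and Gata4 were the 4 that were higher in arrays with the FOXL2 siRNA label, against 6.41% of all genes called higher. Cbx2 was lower, against 6.19%. For each of these 5 genes, the 4 arrays labelled FOXL2 siRNA and the 4 labelled control siRNA did not overlap, as was the case for 20.9% of all genes. Gata6 and Zfpm2 were detected on all 8 arrays and did not pass the test. The plot of the signal on each array shows this division.

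**Figure D1:**
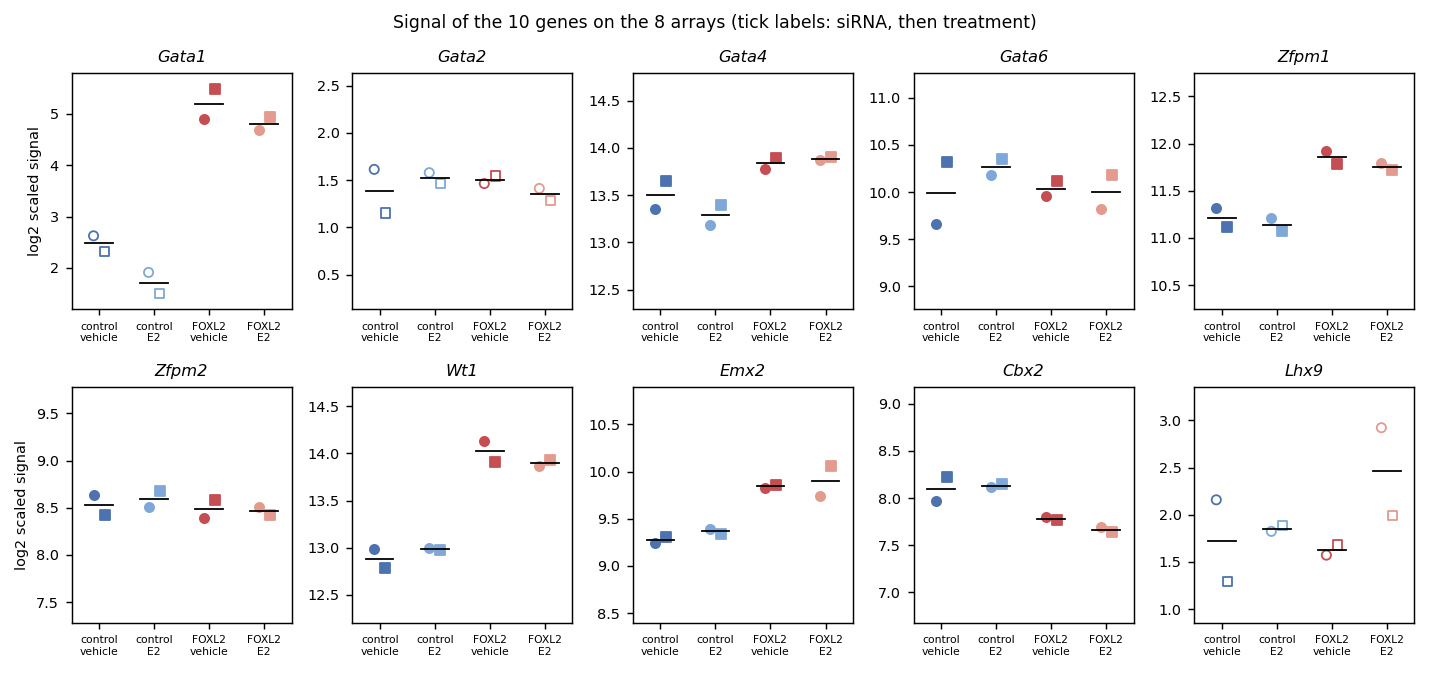
Log2 scaled signal (vertical axis, its own range in each panel) of the 10 genes in the 4 groups. Circles are replicate 1, squares replicate 2, lines the mean of both, and open symbols mark groups in which the gene was not detected on both arrays. Gata1 is open in both control siRNA groups, and Gata2 and Lhx9 are open throughout.

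Among the GATA factors, Gata1, the master factor of red cells and platelets, stood at 2.63 and 2.33 with vehicle and at 1.91 and 1.50 with E2 under control siRNA. Under FOXL2 siRNA it stood at 4.90 and 5.49 with vehicle and at 4.68 and 4.94 with E2. It was thus detected on 0 of 4 arrays labelled control siRNA and on 4 of 4 labelled FOXL2 siRNA.

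Because the control values were not well above background, the size of the Gata1 difference is uncertain. With the dim side set at the lowest signal detected on each array, Gata1 was 2.61-fold higher with FOXL2 siRNA over both treatments. It was 2.85-fold higher with vehicle and 2.39-fold with E2. These are no strict lower bounds, since a probe that is not detected can lie above that lowest signal. The fitted change was 2.91 (SE 0.27, limma adjusted p = 0.00074), but this is no test, since the gene had to differ. With another background correction (normexp) the fitted change was 0.55 over both treatments (adjusted p = 0.010), and with E2 it was 0.47 and no longer passed (adjusted p = 0.142). That correction adds an offset of 50 to every signal, which by itself makes the log2 change of a dim gene smaller. Before the log2 step, Gata1 stood between 2.82 and 44.9 on the 8 arrays. How much of the drop came from the offset was not tested.

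Gata4, which drives gonad formation and steroid enzyme genes, stood at 13.35 and 13.65 with vehicle and at 13.18 and 13.39 with E2 under control siRNA. Under FOXL2 siRNA it stood at 13.78 and 13.90 with vehicle, and at 13.87 and 13.90 with E2. No control array reached the lowest FOXL2 siRNA array, but the gap between the nearest arrays was smaller than the distance between the replicates of either control group. Gata4 rose by 0.47 over both treatments (SE 0.09, adjusted p = 0.0113), or 1.38-fold. With E2 the change was 0.60 (SE 0.12, adjusted p = 0.0351), a call lost in some alternatives and in most fits without 1 array. With vehicle it was 0.34 (SE 0.12), which did not pass (adjusted p = 0.170) unless the replicate number was taken as a block (adjusted p = 0.0164).

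Gata6, the close relative of Gata4 in granulosa and theca cells, ranged from 9.67 to 10.35 over the 4 arrays labelled control siRNA and from 9.82 to 10.18 over those labelled FOXL2 siRNA. The arrays overlapped, and the mean change was -0.11 (95% interval -0.46 to 0.24, adjusted p = 0.704). When replicate 2 of the control siRNA and vehicle group was left out, the value was 0.051. Gata2, a factor of blood stem cells and mast cells, lay between 1.15 and 1.61 on the 8 arrays, was detected on none, and was given no fold.

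Of the FOG cofactors, one passed the test and the other did not. Zfpm1 (FOG1), the partner of GATA1 in blood, stood at 11.32 and 11.11 with vehicle and at 11.21 and 11.07 with E2 under control siRNA. Under FOXL2 siRNA it stood at 11.92 and 11.79 with vehicle and at 11.79 and 11.72 with E2, all above the control arrays. It rose by 0.63 (SE 0.07, adjusted p = 0.0019), or 1.54-fold, over both treatments. The change was 0.64 (adjusted p = 0.0134) with vehicle and nearly as large, 0.62 (adjusted p = 0.0195), with E2. The vehicle call was lost in 3 of the 8 fits without 1 array (FOXL2 siRNA replicate 1 or 2, or control siRNA replicate 2, of that treatment), at an adjusted p of up to 0.0795. The E2 call was lost without any 1 of the 4 arrays of that treatment (adjusted p up to 0.126) and without the intensity trend (adjusted p = 0.0605).

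Both Zfpm1 probes rose on their own, one by 0.62 (SE 0.08, adjusted p = 0.0044) and the other by 0.63 (SE 0.07, adjusted p = 0.0021). Of the 9 probes tested of the 7 genes detected on all arrays, 6 passed the test of single probes, against 7.97% of all probes.

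Zfpm2 (FOG2), the partner of GATA4 in the gonad and heart, ranged from 8.43 to 8.68 with control siRNA and from 8.39 to 8.58 with FOXL2 siRNA. Its change was -0.092 (95% interval -0.31 to 0.12, adjusted p = 0.593), and its 2 probes gave -0.15 (adjusted p = 0.399) and 0.0014 (adjusted p = 0.996). The 95% interval of the Zfpm1 change was 0.45 to 0.80, and the difference between the changes of Zfpm1 and Zfpm2 was not tested.

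Wt1, the zinc finger factor of the genital ridge, kidney and mesothelium, had the smallest adjusted p of the 10 genes. Under control siRNA it stood at 12.98 and 12.78 with vehicle and at 13.00 and 12.97 with E2. Under FOXL2 siRNA the values were 14.13 and 13.91 with vehicle and 13.86 and 13.93 with E2. The 4 FOXL2 siRNA arrays all lay above the 4 control arrays, and the gap between the nearest was larger than the distance between any 2 replicates. Wt1 rose by 1.02 (SE 0.07, adjusted p = 0.00030), or 2.03-fold. The rise was 1.14 with vehicle (SE 0.10, adjusted p = 0.0019) and 0.91 with E2 (SE 0.10, adjusted p = 0.0049). Wt1 passed the test in each of these comparisons under every alternative and without any single array.

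Emx2, a homeobox factor of the urogenital ridge and cortex, stood at 9.25 and 9.31 with vehicle and at 9.39 and 9.34 with E2 under control siRNA. Under FOXL2 siRNA it stood at 9.83 and 9.86 with vehicle and at 9.75 and 10.06 with E2. It rose by 0.55 (SE 0.08, adjusted p = 0.0052), or 1.46-fold, over both treatments. With vehicle the change was 0.56 (SE 0.12, adjusted p = 0.0322), a call lost in some alternatives and in most fits without 1 array. With E2 the change was 0.53 (SE 0.12, adjusted p = 0.050), just short of passing. With the replicate block the latter passed (adjusted p = 0.0036).

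Lhx9, a LIM homeobox factor of the genital ridge, was read by 3 probes and lay between 1.29 and 2.92. It was detected on none of the 8 arrays, and no fold is given. The gene cannot be said to be absent, only to lie under what these probes register.

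Cbx2, the polycomb chromobox protein that favours testis formation, was the 1 gene of the group called lower. Under control siRNA it stood at 7.96 and 8.23 with vehicle and at 8.11 and 8.15 with E2. Under FOXL2 siRNA the values were 7.79 and 7.77 with vehicle and 7.69 and 7.64 with E2. Over both treatments Cbx2 fell by 0.39 (SE 0.09, adjusted p = 0.0285), to 76.4% of its control level. Neither treatment alone gave a call: the change was -0.31 with vehicle (adjusted p = 0.227), and -0.47 under E2 (adjusted p = 0.0945), which passed with the replicate block (adjusted p = 0.0181). The call over both treatments was lost in 7 of the 8 fits without 1 array and, without the filter on low signal, at an adjusted p of 0.0545.

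Taken one treatment at a time, 3 of the 7 genes were called with vehicle (Zfpm1, Wt1 and Emx2), against 6.57% of all genes, and 3 of 7 with E2 (Gata4, Zfpm1 and Wt1), against 4.39%. These calls were of higher signal with FOXL2 siRNA, against 3.63% of all genes with vehicle and 2.25% with E2. Gata1, which had to differ, was called under each treatment too. Each Gata1 call was lost when the FOXL2 siRNA array of replicate 2 in its treatment was left out. With the replicate block 4 of the 7 genes were called with vehicle, against 18.7% of all genes, 5 of 7 with E2, against 14.9%, and 5 of 7 over both treatments, against 27.7%. The treatments were not shown to differ: the test of the difference between both siRNA changes, which is also the difference between both E2 changes, was passed by 0 of 8 genes.

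**Figure D2:**
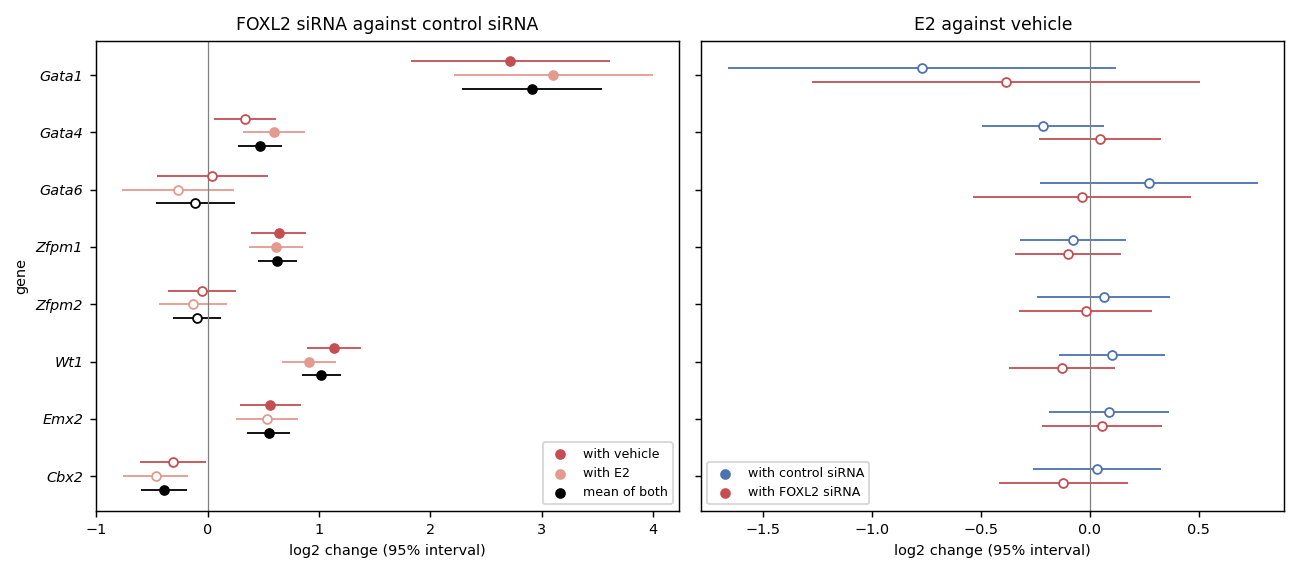
Log2 change of the 8 genes tested with its 95% interval, for FOXL2 siRNA against control siRNA (left) and E2 against vehicle (right). Filled points passed the test at an adjusted p of 0.05 and open points did not. On the left, 6 of the 8 means of both treatments are filled, and on the right every point is open. Gata1, filled on the left, passed the filter only through the arrays labelled FOXL2 siRNA.

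The second question was whether E2 moves these genes, and no gene of the group passed that test. With control siRNA, 0 of 8 were called by limma, against 0.0192% of all genes, and with FOXL2 siRNA 0 of 8, against 0.0128%. No gene of the group reached an unadjusted p under 0.05 either way, against 4.58% of all genes with control siRNA and 3.04% with FOXL2 siRNA. With the replicate block the members called were again 0, against 1.16% of all genes with control siRNA and 0.614% with FOXL2 siRNA. The difference of the E2 changes was called for 0 of 8, against 0.243% of all genes. An unadjusted p under 0.05 was reached by 0 of 8, against 4.90% of all genes. The E2 changes with control siRNA ran from -0.77 for Gata1, which was not well above background in either group, to 0.27 for Gata6 (95% interval -0.23 to 0.77).

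With FOXL2 siRNA they ran from -0.38 for Gata1 (95% interval -1.27 to 0.51) to 0.058 for Emx2 (95% interval -0.22 to 0.33). For Gata4 the E2 change was -0.21 with control siRNA (95% interval -0.49 to 0.07) and 0.048 with FOXL2 siRNA (95% interval -0.23 to 0.33). For Wt1 it was 0.10 (95% interval -0.14 to 0.35) and -0.13 (95% interval -0.37 to 0.12). With 2 arrays per group, changes inside these intervals could not be told from none.

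Wt1 and Emx2 each have a noncoding RNA gene beside them, Wt1os and Emx2os, named as opposite-strand transcripts. They are the next genes to Wt1 and Emx2 in the RefSeq annotation of GRCm38.p6, and Gata6os is next to Gata6. These 3 were added for their position, outside the rule for named genes. Wt1os stood between 4.59 and 4.88 on the arrays labelled control siRNA and between 6.10 and 6.42 on those labelled FOXL2 siRNA, a rise of 1.57 (SE 0.13, adjusted p = 0.00052). Emx2os stood between 5.08 and 5.30 and between 6.03 and 6.14, a rise of 0.90 (SE 0.13, adjusted p = 0.0048). In both pairs the neighbour moved in the direction of the factor. Gata6os, like Gata6, did not pass the test (0.069, SE 0.15, adjusted p = 0.824). Whether signal of one gene of a pair reaches the probe of the other was not tested.

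**Figure D3:**
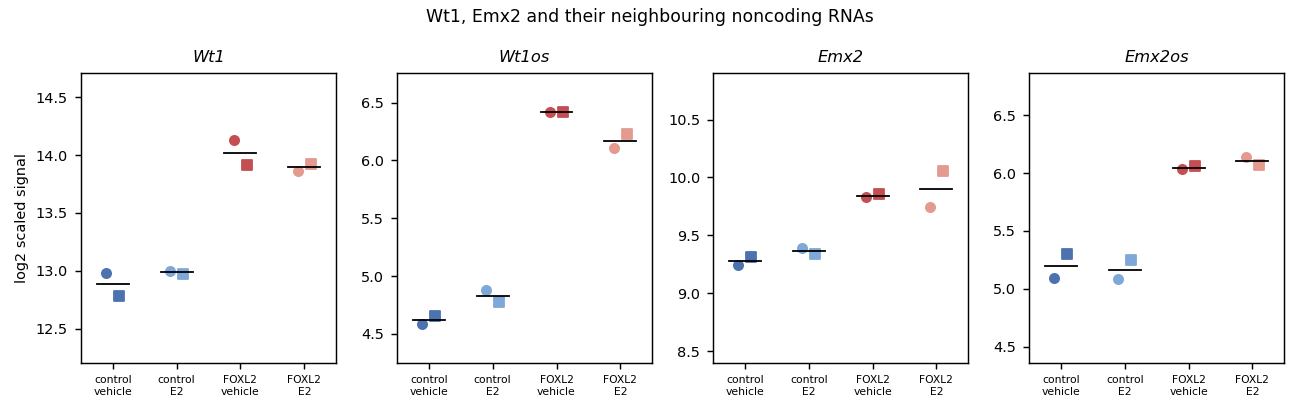
Log2 scaled signal of Wt1, Wt1os, Emx2 and Emx2os in the 4 groups, with circles for replicate 1, squares for replicate 2 and lines for the mean. Each panel spans the same number of log2 units around its own centre, and in all 4 the arrays labelled FOXL2 siRNA lie above those labelled control siRNA.

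Promoter sequences could be matched in RefSeq tables (GRCm38.p6) for 5 of the 10 genes. Those of the 3 genes that were higher with FOXL2 siRNA and had an entry are printed to show which short motifs they hold. Each runs from 250 bases before the start to 50 after it, on the strand of the gene. They lie upstream of and over the first transcribed bases of Gata1 (chrX:7967861-7968160, minus strand), Zfpm1 (chr8:122281891-122282190, plus strand) and Emx2 (chr19:59458440-59458739, plus strand). Capitals mark a match to the GATA core GATAA, the forkhead core TAAACA or the WT1 and EGR site GCGGGGGCG on either strand.
Gata1: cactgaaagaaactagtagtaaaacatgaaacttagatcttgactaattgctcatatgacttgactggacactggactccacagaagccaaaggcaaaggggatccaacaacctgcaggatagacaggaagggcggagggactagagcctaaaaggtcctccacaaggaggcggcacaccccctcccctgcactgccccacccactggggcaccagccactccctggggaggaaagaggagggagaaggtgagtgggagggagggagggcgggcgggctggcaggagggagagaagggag
Zfpm1: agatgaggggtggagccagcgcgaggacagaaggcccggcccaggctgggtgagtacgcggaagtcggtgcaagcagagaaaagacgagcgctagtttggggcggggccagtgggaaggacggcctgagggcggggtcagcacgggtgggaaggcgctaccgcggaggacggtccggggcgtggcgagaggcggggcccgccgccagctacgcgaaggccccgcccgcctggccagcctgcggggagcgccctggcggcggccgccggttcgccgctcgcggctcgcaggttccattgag
Emx2: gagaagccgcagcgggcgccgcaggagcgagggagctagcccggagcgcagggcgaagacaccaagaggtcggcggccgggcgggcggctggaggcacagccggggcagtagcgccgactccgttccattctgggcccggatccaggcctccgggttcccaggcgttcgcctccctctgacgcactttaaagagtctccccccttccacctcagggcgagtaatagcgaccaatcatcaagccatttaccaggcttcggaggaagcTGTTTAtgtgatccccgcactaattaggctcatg
The only match in these 3 sequences was a forkhead core in Emx2, on the opposite strand and after the start. Of the 32851 RefSeq promoters of this length, 13.4% hold a forkhead core, 25.4% a GATA core and 2.91% the WT1 and EGR site. A match of this kind is a description of letters and no sign of binding.

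Markers of other cell types were read beside these results. Of 9 markers of the ovarian surface epithelium and mesothelium, tissues in which Wt1 is itself a known marker, 8 were tested and 6 were called higher with FOXL2 siRNA over both treatments. These were Msln (2.07, SE 0.11, adjusted p = 0.00013), Muc16 (2.07), Upk3b (1.47), Upk1b (1.30), Krt18 (0.47) and Krt8 (0.29). The summed signal of all 9 lay between 14.12 and 14.31 on the arrays labelled control siRNA and between 14.70 and 14.85 on those labelled FOXL2 siRNA. The markers thus moved in the same arrays as Gata1, Gata4, Zfpm1, Wt1 and Emx2, and their part in those results was not tested. With vehicle the same 6 were called, and with E2 Msln and Muc16.

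Of 10 Sertoli cell markers, 9 were tested and 4 were called higher: Sox9 (2.05, SE 0.15, adjusted p = 0.00030), Sox8 (1.72), Dhh (1.04) and Rhox5 (0.68). Their summed signal lay between 12.14 and 12.42 with control siRNA and between 12.91 and 13.10 with FOXL2 siRNA, while Sox10 was detected on none. This signal, too, moved in the same arrays as Gata1, Gata4, Zfpm1, Wt1 and Emx2, and its part in those results was not tested. With vehicle Sox9, Sox8 and Dhh were called higher. With E2 the same 3 were called higher, and Gdnf lower (-0.90, adjusted p = 0.0422).

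The red cell, platelet and mast cell markers were near background, in the arrays with high Gata1 and Zfpm1 too. Of 10 on the array, 0 were detected on all 8 arrays, and of the 2 tested 0 were called in any comparison. Pf4, Itga2b, Gp1ba, Cpa3 and Fcer1a were detected on none. Their summed signal lay between 5.43 and 7.32 with control siRNA and between 5.69 and 6.39 with FOXL2 siRNA. The highest value came from Mcpt4 in replicate 1 of control siRNA with vehicle. Granulosa markers had 0 called higher and 3 lower, Fst (-2.02), Hsd17b1 (-1.47) and Esr2 (-0.46), of 10 tested. Of 3 theca markers tested, Aldh1a1 was called higher (0.48). The summed signal of the 5 theca markers on the array did not overlap between the siRNAs. It lay between 17.31 and 17.50 with control siRNA and between 17.79 and 18.00 with FOXL2 siRNA. The theca signal thus also moved in the same arrays as Gata1, Gata4, Zfpm1, Wt1 and Emx2, and its part in those results was not tested. Of the tested markers of endothelium (2), leukocytes and macrophages (5), stroma (4) and oocytes (2), 0 were called in any comparison of the siRNAs.

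**Figure D4:**
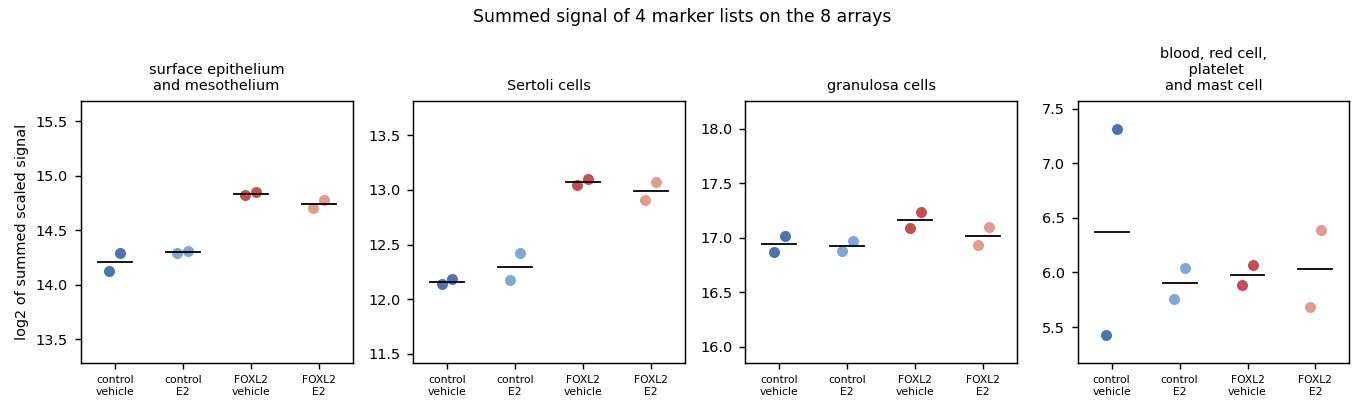
Log2 of the summed scaled signal of 4 marker lists on the 2 arrays of each group (points) with their mean (lines). The surface epithelium and Sertoli lists lie higher on all 4 arrays labelled FOXL2 siRNA, while the granulosa and blood lists overlap between the siRNAs.

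Other genes of the same pathways were read from lists chosen with earlier results of these data known. Over both treatments the median change of the 7 genes detected on all arrays was 0.47, and that of all genes was -0.0026. Of 8 other gonadal ridge factors tested, 1 was called higher, Gadd45g (1.42, adjusted p = 0.0038), and 2 lower, Six4 (-0.71) and Cited2 (-0.49). With vehicle, Gadd45g and Six4 were called, and with E2 0. Nr5a1, the steroidogenic factor, was detected on all 8 arrays and was not called, while Nr0b1, Tcf21, Osr1 and Lhx2 were detected on none. The list had a median of -0.048.

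Of 8 other GATA family members and WT1 partners, 1 was called, Gata3 (0.97, adjusted p = 0.0189), with a list median of 0.14, and neither treatment alone gave a call. Of 14 polycomb subunits beside Cbx2, 1 was called, Cbx6 (-0.29, adjusted p = 0.0379), with a median of -0.025. The 2 chromobox genes that passed, Cbx2 and Cbx6, were both lower.

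Known targets of these factors were read as well. Of 9 tested targets of GATA4 and GATA6, 3 were called higher over both treatments: Cyp11a1, the side-chain cleavage enzyme (0.89, SE 0.06, adjusted p = 0.00020), Ccnd2, a cyclin of granulosa cell growth (0.88), and the inhibin subunit Inhbb (0.80). Hsd17b1 (-1.47) and Hsd3b1 (-0.69), enzymes of steroid synthesis, were called lower. With vehicle Ccnd2 and Cyp11a1 were called higher and Hsd17b1 and Hsd3b1 lower, and with E2 Cyp11a1 higher and Hsd17b1 lower. Amh, Fshr and Lhcgr, all targets of GATA4, were detected on none.

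Of 7 tested WT1 targets, 0 were called higher and 1 lower, the neurotrophin Bdnf (-1.13, SE 0.07, adjusted p = 0.00017), which was also called with vehicle (-0.99) and with E2 (-1.27). Of 5 tested blood targets of GATA1 and GATA2, 0 were called in any comparison by limma. In none of these lists did E2 give a call.

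For each called gene detected on all 8 arrays, the 2 genes with the most similar pattern over the 8 arrays were sought among genes also detected on all of them. They were Col4a6 (r = 0.997) and Crispld2 (r = 0.996) for Wt1, Csrnp1 (r = 0.991) and Robo4 (r = 0.989) for Zfpm1, and Slc2a13 (r = 0.991) and Unc5b (r = 0.990) for Emx2. For Gata4 they were Cystm1 (r = 0.994) and Pnpla6 (r = 0.983), and for Cbx2 Troap (r = 0.983) and Itgb5 (r = 0.982). These are Pearson correlations over 8 arrays of 4 groups that share the siRNA difference, picked as the highest of all genes, and are given as a description.

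**Figure D5:**
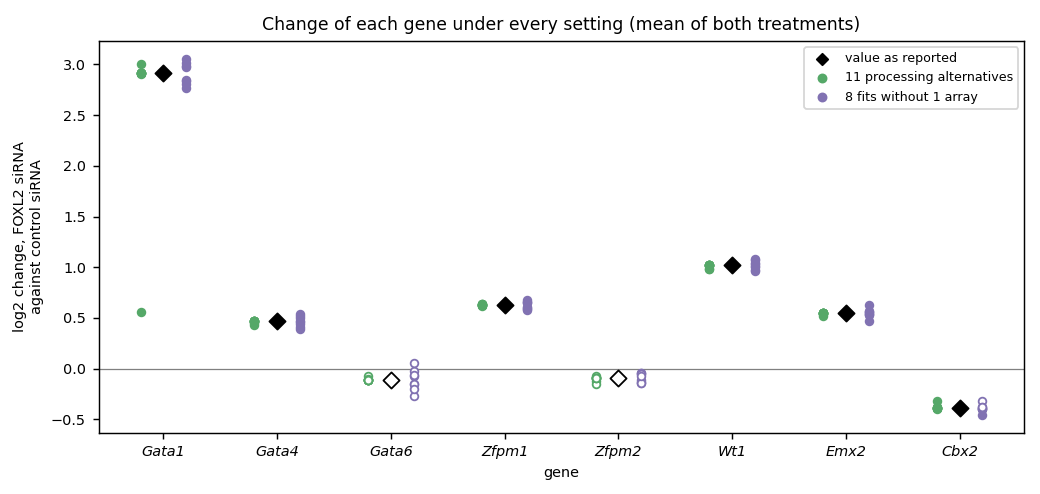
Log2 change of the 8 genes with FOXL2 siRNA over both treatments as reported (diamonds), under 11 processing alternatives (left points) and in 8 fits without 1 array (right points). Filled symbols passed the test. Gata1 is at 2.91 as reported and at 0.55 with normexp background correction, and Cbx2 is mostly open without an array.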

How the data were processed

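RNA of 8 samples, 2 in each of 4 groups, was hybridised to 8 one-colour Agilent arrays on 1 slide. Groups and replicate numbers came from the sample titles, and per the series text the duplicates came from different animals. Per the file headers, the deposited scanner output gives processed spot intensity from Agilent Feature Extraction 11.5.1.1, background-subtracted by the authors' software, with median raw intensity and background beside it. The authors' deposited gene table is on a log2 scale, relative to each array's 75th percentile. Once the median offset of each array was removed, 98.6 to 98.9% of its gene values equalled those computed here within 0.001.

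Of 62976 spots, 3671 control spots were left out, as were 39 probes with only non-uniform spots. Signals were divided by the array's own 75th percentile (275 to 367) and multiplied by the geometric mean of these percentiles, 319.97. Probes sharing an Entrez ID were averaged on the linear scale, and the filter kept the 15638 of 24235 genes whose scaled signal had a median of 10 or more. Symbols came from a RefSeq table, which named 22352 genes.

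Log2 values were fitted as 4 group means over 8 arrays with limma 3.58.1 in R 4.3.3 (intensity trend, two-sided, Benjamini-Hochberg over all genes, threshold 0.05, 4 residual degrees of freedom). Single probes were fitted in the same way, and the fit was tested on simulated data. The number of arrays limits the precision. The main fit had no block. Deviations of same-numbered samples from their group means correlated at 0.33 to 0.44 across genes for all 6 pairs of groups, above the limit of 0.1 that was set, so a fit with the replicate number as a block is given where it changes a call. Each replicate number also lay on its own row of the slide.

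The 10 genes and all gene lists were chosen with earlier results of these data known. Named beside them are Foxl2, up to 4 called genes of each list with the largest change in the mean of both treatments and every gene of a count of 5 or fewer. The alternatives were normexp background correction (offset 50), quantile normalization, the deposited values, centring on the median, 2 other filters, 2 other ways to join probes, no intensity trend, only the groups compared, the block, and each array left out. Normexp used the median spot signal, since the mean was not in the files used here. Python 3.11.15 was used for tables (pandas 2.3.3, numpy 2.4.6) and for plots (matplotlib 3.10.9).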

Additional observations from a re-analysis of the deposited data

How the results depend on the processing

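Under the 11 alternatives to the processing, 523 of 528 changes (8 genes in 6 comparisons) had the direction given above. The 5 that turned were small and not called: with normexp background correction the E2 change of Cbx2 with control siRNA was -0.029, that of Gata6 with FOXL2 siRNA 0.021 and the difference of the E2 changes of Gata1 -0.18. With the brightest probe the E2 change of Zfpm2 with FOXL2 siRNA was 0.058, and with quantile normalization the difference of the E2 changes of Zfpm1 was 0.0021. The number of these genes called with E2, Gata1 included, went from 4 to 2 with normexp (Gata1 and Gata4 lost) and to 2 without the intensity trend (Gata4 and Zfpm1 lost). Of all genes, 4.39% were called with E2 in the main fit, 3.92% with normexp and 2.42% without the intensity trend. The cause of these losses was not tested.

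The replicate block gained 3 calls among these genes, named beside them above, and lost 0; it changed no other call.

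When 1 array was left out, its group kept 1 array, so the changes are followed here by size and direction. Of 384 changes in these fits, 26 turned in direction. The directions that turned belonged to changes that were not called. For FOXL2 siRNA against control siRNA, the ranges were -0.28 to 0.37 for Gata6 and -0.16 to 0.057 for Zfpm2 with vehicle, and -0.27 to 0.051 for Gata6 over both treatments. For E2 with control siRNA they were -0.053 to 0.60 for Gata6, -0.18 to 0.025 for Zfpm1, -0.042 to 0.17 for Zfpm2 and -0.096 to 0.17 for Cbx2. For E2 with FOXL2 siRNA they were -0.012 to 0.11 for Gata4, -0.22 to 0.15 for Gata6, -0.11 to 0.077 for Zfpm2 and -0.096 to 0.21 for Emx2. For the difference of the E2 changes they were -0.63 to 0.019 for Gata6, -0.12 to 0.081 for Zfpm1, -0.19 to 0.024 for Zfpm2 and -0.19 to 0.12 for Emx2.

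Calls of Gata1 are set aside here, since it passed the filter only through the arrays labelled FOXL2 siRNA. Gata4, Zfpm1, Wt1 and Emx2 were called over both treatments in all 11 alternatives and all 8 fits without 1 array. For Cbx2 this held in 10 of 11 and in 1 of 8. Emx2 with vehicle was called in 9 of 11 and 2 of 8, and Gata4 with E2 in 7 of 11 and 2 of 8. Array intensities have no depth. For Gata1, Gata2 and Lhx9 the background sets the limit.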
